A study of Mus musculus with 4 samples.

Results

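The 10 genes described here belong to the MHC class II pathway and were chosen by symbol from the 32285 genes of the count matrices. They are the chain genes H2-Aa, H2-Ab1 and H2-Eb1, the invariant chain gene Cd74, the peptide exchange genes H2-DMa, H2-DMb1 and H2-DMb2, the genes H2-Oa and H2-Ob of the exchange inhibitor, and the coactivator gene Ciita. All 10 were found in each of 4 single-cell libraries of mouse aorta, made with a 10x 3' kit and 1 library per group. The groups were WT aorta on normal diet, LysM-DKO aorta on normal diet, WT/ApoE-/- aorta on western diet and LysM-DKO/ApoE-/- aorta on western diet. Ages, and the number of animals behind each library, are not given in the sources used here. LysM is lysozyme M, encoded by Lyz2, and its promoter is widely used to drive Cre in macrophages, monocytes and neutrophils, while the series title concerns epsins. The labels do not spell out which genes DKO stands for.

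MHC class II molecules present peptides from the endosomal pathway to CD4+ T cells. An alpha and a beta chain pair in the endoplasmic reticulum around the invariant chain, which blocks the groove and sorts the complex to endosomes, where proteases trim it to a short remnant called CLIP. The DM heterodimer then exchanges CLIP for peptide, and the DO heterodimer restrains DM, mainly in B cells. Transcription of the chain genes depends largely on CIITA. This coactivator does not bind DNA itself and is recruited by RFX, CREB and NF-Y proteins on X and Y boxes before the start. In the artery wall the genes are known from dendritic cells, B cells and a share of macrophages.

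Values below are unique molecular identifiers (UMIs) summed over the barcodes of a class in a library, given as CPM, that is, per 1000000 UMIs of that class. The 3' kit counts 1 end of a transcript, so no correction for length was made. Brackets hold 95% intervals, exact Poisson for levels and exact binomial for ratios and shares. They cover counting error only, and not variation between cells, animals or preparations. Each group has a single library, so differences between groups carry no p-value. The western diet libraries also lacked Apoe, came from cells of the other sex (Xist at 950 CPM in both normal diet libraries against 0.636 and 0.563 CPM) and were counted with another software version, so these factors and diet cannot be told apart. Where 4 values stand in a row, their order is WT, LysM-DKO, WT/ApoE-/- and LysM-DKO/ApoE-/-.

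Of 13831, 15826, 29724 and 11414 barcodes, 7758, 8230, 13744 and 8133 passed limits of 1000 UMIs or more and 10% mitochondrial UMIs or less, with medians of 4167, 3404, 2103 and 6761 UMIs. Barcodes were classed by the first rule they met, and macrophages, with at least 5 UMIs of C1qa, C1qb and C1qc, numbered 92, 208, 939 and 135. Those with at least 2 UMIs of Gpnmb, Trem2 and Mmp12 are called macrophages with foam genes here (13, 35, 503 and 66 barcodes). They were deeper in each library, with medians of 8462, 6743, 4103 and 5729 UMIs against 4400, 4448, 1926 and 3077 in the others. Spp1, a plaque macrophage gene outside the rule, was at 80.2, 88.0, 14592 and 2454 CPM with foam genes. Without them it was at 30.1, 95.4, 3638 and 71.3 CPM, so the foam gene groups were not alike across libraries. Of 7 other macrophage markers, 7, 6, 6 and 7 were highest in the macrophage class. The classes were not pure: 60.9, 63.9, 43.5 and 37.0% of macrophage barcodes also met the rule of another class. Doublets were not called, and library pairs shared 9 to 41 kept barcodes, at most 0.528% of the smaller library. Lyz2 stood at 3696, 977, 4126 and 798 CPM in macrophages, lower in both LysM-DKO libraries. Epn1 stood at 81.7, 54.5, 52.4 and 42.7 CPM and Epn2 at 35.6, 33.6, 33.2 and 15.7 CPM. The 3' reads can lie outside a deleted part of a gene, so these levels do not check the genotype.

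Of the members, 9 have coordinates here on GRCm38 (GENCODE M21): 8 lie in the MHC on chromosome 17, from H2-Oa at chr17:34092340-34095234 to H2-Eb1 at chr17:34305867-34316674, and Ciita lies at chr16:10480059-10528418. All 9 are annotated as protein-coding. H2-Eb1, H2-DMa, H2-Oa and Ciita overlap genes on the other strand, and H2-DMa also overlaps CR974462.3 on its own strand, so its counts may be shared. H2-DMb1 and H2-DMb2 are near-identical neighbours, and the split of reads between them is uncertain. RefSeq windows of 150 bases before the start (GRCm38.p6) were at hand for 7 members. H2-Ab1, Cd74 and Ciita had no entry. The 3 windows printed show the motifs that the coactivator's partners are known to bind. Capitals mark matches to GATTGG, the core of the Y box (CCAATC on the other strand), to AACNNNTGA, letters that span the end of the X box and the start of its neighbour X2, and to TGACGTCA, the full CREB site.
H2-Aa: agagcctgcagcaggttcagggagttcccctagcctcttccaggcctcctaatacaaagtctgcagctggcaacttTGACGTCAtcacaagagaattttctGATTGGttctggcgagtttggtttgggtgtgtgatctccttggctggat
H2-Eb1: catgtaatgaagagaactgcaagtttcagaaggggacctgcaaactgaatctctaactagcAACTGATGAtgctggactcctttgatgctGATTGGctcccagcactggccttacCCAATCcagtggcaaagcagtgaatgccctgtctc
H2-Ob: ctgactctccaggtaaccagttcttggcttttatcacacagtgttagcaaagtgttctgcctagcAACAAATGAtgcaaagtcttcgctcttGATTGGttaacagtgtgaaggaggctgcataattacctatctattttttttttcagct
The windows run 5′ to 3′ in the direction of the gene, H2-Aa at chr17:34287824-34287973 on the minus strand, H2-Eb1 at chr17:34305717-34305866 and H2-Ob at chr17:34238755-34238904 on the plus strand. On both strands, GATTGG was found in 6 of the 7 members, and in 10.9% of 32851 windows of the same length. AACNNNTGA was found in 4 members (H2-Eb1, H2-DMb1, H2-DMb2 and H2-Ob) and in 5.74% of windows. TGACGTCA was found in H2-Aa alone among members and in 1.36% of windows. Between the X box letters and the Y box core lay 20 bases in H2-Eb1, 21 in both H2-DMb1 and H2-DMb2, and 18 in H2-Ob, and 17 bases lay between the full CREB site and the Y box core in H2-Aa. H2-DMa had 2 windows, at chr17:34122682-34122831 and chr17:34125368-34125517, and none of the 3 motifs was found in either. Both windows lie inside the annotated gene (chr17:34119541-34139101), and windows at other starts of H2-DMa were not at hand. The H2-DMb2 window (chr17:34145099-34145248) also lies inside its annotated gene (chr17:34143307-34151555). Those of H2-DMb1, H2-Oa and H2-Ob lie partly inside theirs. No 2 matches overlapped. The letters were chosen after the windows were seen, and a match is a description and not a shown site.

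**Figure D1:**
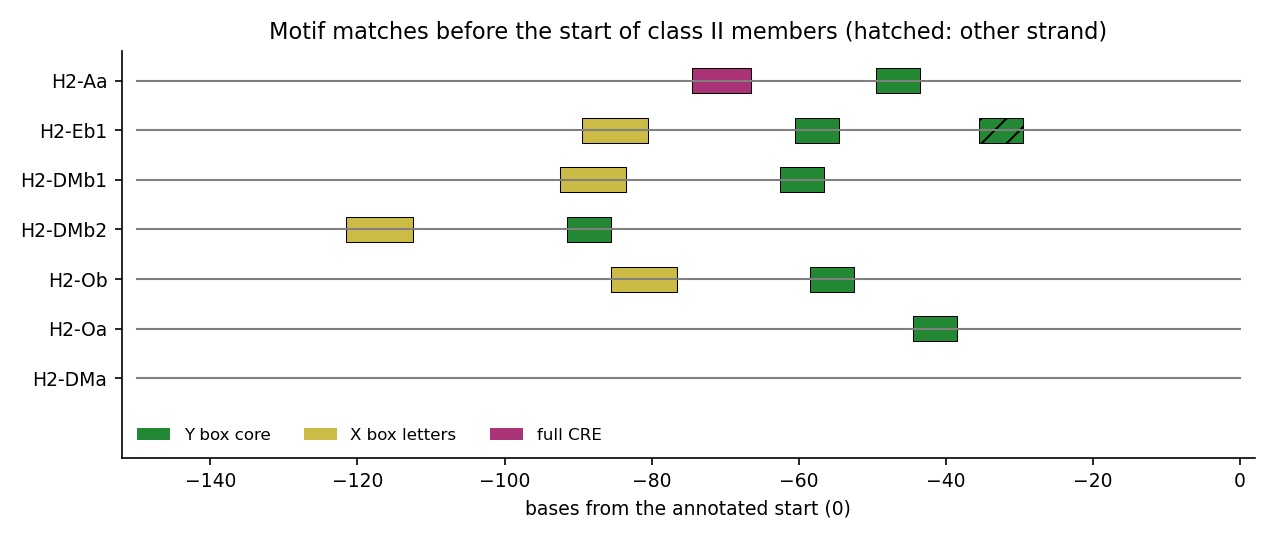
Positions of the 3 motifs in the 150 bases before the annotated start of the 7 members with a RefSeq window. The horizontal axis is the distance in bases from the start, each grey line is 1 gene, and hatched boxes lie on the other strand. The line of H2-DMa stands for 2 windows without a match. In H2-Eb1, H2-DMb1, H2-DMb2 and H2-Ob the X box letters precede the Y box core by 18 to 21 bases.

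The summed level of H2-Aa, H2-Ab1, H2-Eb1 and Cd74, called the class II sum here, was high in macrophages and B cells and low in T and vascular cells. In macrophages it was 12411 (12097 to 12731), 18677 (18423 to 18934), 4365 (4300 to 4431) and 18179 (17865 to 18497) CPM, so the WT/ApoE-/- library was the low one of the 4. In B barcodes (Cd79a and Ms4a1, at least 2 UMIs; 773, 1121, 503 and 14 barcodes) it was 14540, 14556, 14804 and 9265 CPM. The first 3 of these B values lay close together, and the last rests on 14 barcodes, of which 1 held 16.3% of the sum. T barcodes had 66.1, 200, 72.3 and 24.8 CPM, the last from 3 UMIs, far below both antigen-presenting classes of the same library. On the log2 scale, B barcodes exceeded macrophages by 0.23 (0.19 to 0.27) in the WT library and by 1.76 (1.73 to 1.79) in the WT/ApoE-/- library. On normal diet 63.6% of WT and 69.4% of LysM-DKO B barcodes also met the rule of a later class, and without barcodes of several rules the WT value was 1.12 (1.04 to 1.20), past 2 fold. In the LysM-DKO library on normal diet the sign was the other way, at -0.36 (-0.38 to -0.34), and in LysM-DKO/ApoE-/- it was too, at -0.97 (-1.11 to -0.84). In the first 3 libraries the order of the classes thus followed the macrophage level, since the B level was nearly the same.

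**Figure D2:**
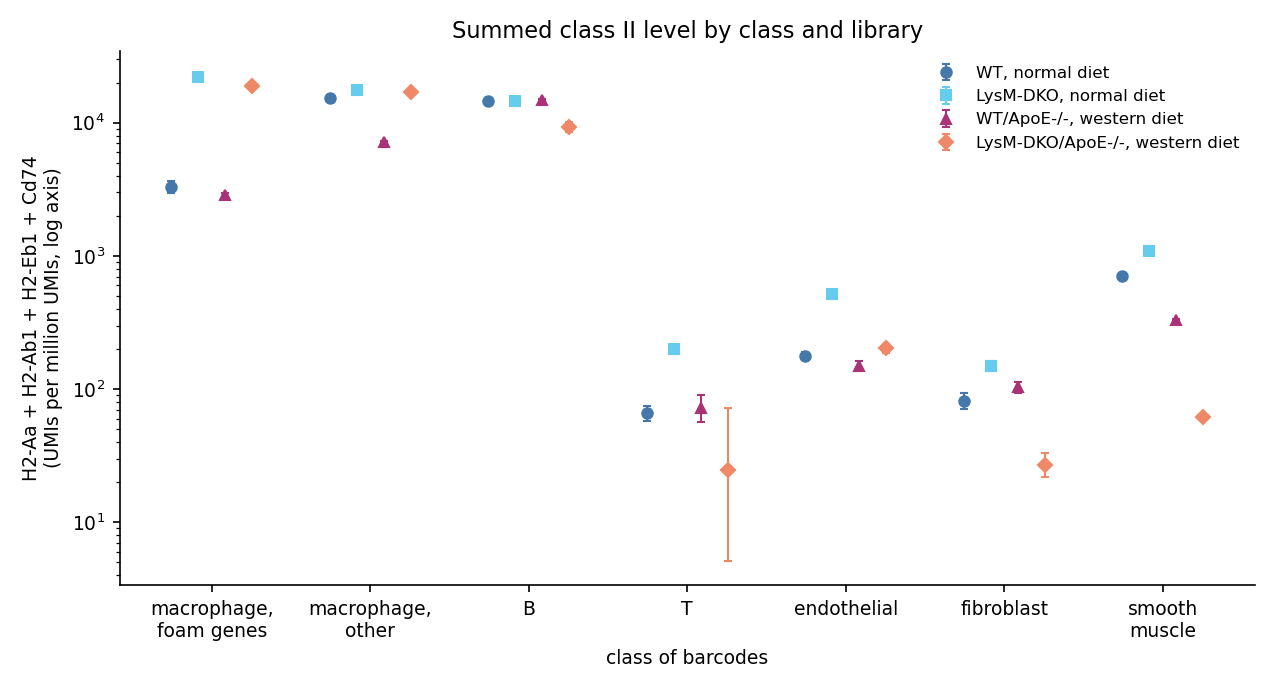
Class II sum (H2-Aa, H2-Ab1, H2-Eb1 and Cd74, UMIs per 1000000, log axis) for 7 classes of barcodes; each point is 1 library and bars are 95% Poisson intervals of counting error. Macrophages of the 2 LysM-DKO libraries and B barcodes of the first 3 libraries sit at 14540 or more, while the WT/ApoE-/- macrophages sit at 2875 and 7145.

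The chain genes and Cd74 were high together in macrophages of the LysM-DKO/ApoE-/- library and low together in those of the WT/ApoE-/- library. H2-Aa, the I-A alpha chain, stood at 2699, 4076, 982 and 3923 CPM. H2-Ab1, its beta chain partner, stood at 1745, 3020, 754 and 3115 CPM. H2-Eb1, the I-E beta chain, stood at 2367, 3667, 877 and 3802 CPM. Cd74, the invariant chain and the most abundant of the 4 in UMIs, stood at 5600, 7913, 1753 and 7340 CPM. For each of these genes WT/ApoE-/- was lowest, WT was next, and the LysM-DKO libraries were highest and near each other.

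On western diet the log2 ratio of LysM-DKO/ApoE-/- over WT/ApoE-/- macrophages was 2.0 (1.93 to 2.07) for H2-Aa, 2.05 (1.97 to 2.13) for H2-Ab1, 2.12 (2.04 to 2.19) for H2-Eb1 and 2.07 (2.01 to 2.12) for Cd74. Their sum was higher by 2.06 (2.02 to 2.09). In all, 7 of the 8 members with at least 20 UMIs over both libraries were at least 2 fold higher, where 4.10% of the 10418 genes with as many UMIs were higher and 9.10% lower. The median of these 8 was 2.02, beside -0.05 over all such genes. H2-Ob, at -0.39 (-2.95 to 1.13) with 3 and 25 UMIs, was the one that was not. On normal diet the same ratio was 0.59 (0.55 to 0.63) for the class II sum. It was 1.42 (1.34 to 1.51), past 2 fold, without barcodes that met the rule of another class, which left 36 WT and 75 LysM-DKO barcodes. Over all macrophages 0 of 8 members were at least 2 fold higher or lower, where 6.55% of 7068 genes were higher and 2.39% lower. The median was 0.54, with H2-Ab1 highest at 0.79 (0.68 to 0.90) and Ciita lowest at -0.18 (-1.15 to 0.93). Whether the genotype ratio differed between the diets could not be tested.

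Across diets, which here include the ApoE background, WT macrophages were lower by 1.51 (1.46 to 1.55) in the class II sum on the log2 scale. The 2 libraries differ in the make-up of this class, since 13 of 92 barcodes carried foam genes in WT and 503 of 939 in WT/ApoE-/-. Within barcodes with foam genes the ratio was -0.19 (-0.34 to -0.03), and within the others it was -1.09 (-1.14 to -1.04). Among barcodes that met no other rule, the pooled ratio was -0.51 (-0.59 to -0.43), under 2 fold. Neither subset was lower in its summed level, at 3.32 (2.77 to 4.01) with foam genes and 0.02 (-0.06 to 0.11) without. The first of these subset values rests on 23 class II UMIs of 8 WT barcodes. Of 8 members with at least 20 UMIs, 6 were at least 2 fold lower, where 8.71% of 10342 genes were lower and 21.0% higher, and their median was -1.44 beside 0.25 over all genes. Among the 4 abundant genes Cd74 differed most, at -1.68 (-1.74 to -1.61), and H2-Ab1 least, at -1.21 (-1.32 to -1.10). LysM-DKO macrophages were at like levels on both diets, with -0.04 (-0.07 to -0.01) for the sum. There 0 of 7 members passed 2 fold in either direction, where 7.11% of 7668 genes were higher and 6.46% lower. H2-Aa was at -0.06 (-0.12 to 0.01) and H2-Eb1 at 0.05 (-0.02 to 0.12), with both intervals reaching over 0. Among LysM-DKO barcodes that met no other rule, the subsets went opposite ways in the sum. It was at -0.54 (-0.62 to -0.46) with foam genes, over 42 and 11 barcodes, and at 0.13 (0.06 to 0.20) without. The diet comparisons share their libraries with the genotype comparisons, and the 4 ratios are not independent of each other.

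The gap between the western diet libraries was wider among macrophages with foam genes, although the difference from the other macrophages was not tested. In macrophages with foam genes the class II sum was 3272, 22212, 2875 and 18832 CPM, and in the other macrophages it was 15216, 17512, 7145 and 16910 CPM. H2-Aa, as an example of a single gene, stood at 651, 4871, 643 and 4017 CPM with foam genes and at 3328, 3814, 1613 and 3740 CPM without. Both WT libraries were therefore low among barcodes with foam genes, and the 4 libraries were closer to each other among the rest. Of the members with at least 20 UMIs, 7 of 7 were at least 2 fold higher in LysM-DKO/ApoE-/- than in WT/ApoE-/- with foam genes, where 3.91% of 9053 genes were higher and 7.72% lower, with a median of 2.68. Among the other macrophages 7 of 7 were too, where 8.78% of 7850 genes were higher and 15.8% lower, with a median of 1.35. The class II sum differed there by 1.24 (1.19 to 1.30), and by 0.65 (0.59 to 0.72), under 2 fold, among the barcodes that met no other rule. On normal diet 6 of 6 were at least 2 fold higher with foam genes, where 11.9% of 2860 genes were higher and 8.46% lower, but the WT value rests on 13 barcodes, of which 1 held 50.1% of the class II UMIs. Among the other macrophages on normal diet 0 of 7 were 2 fold higher or lower, where 6.83% of 6235 genes were higher and 2.87% lower. Between the WT libraries 4 of 7 were at least 2 fold lower in the other macrophages of WT/ApoE-/-, where 8.11% of 8015 genes were lower and 21.9% higher. With foam genes 0 of 6 were lower and 1 was at least 2 fold higher, with a median of 0.11, where 12.6% of 8736 genes were lower and 26.7% higher.

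**Figure D3:**
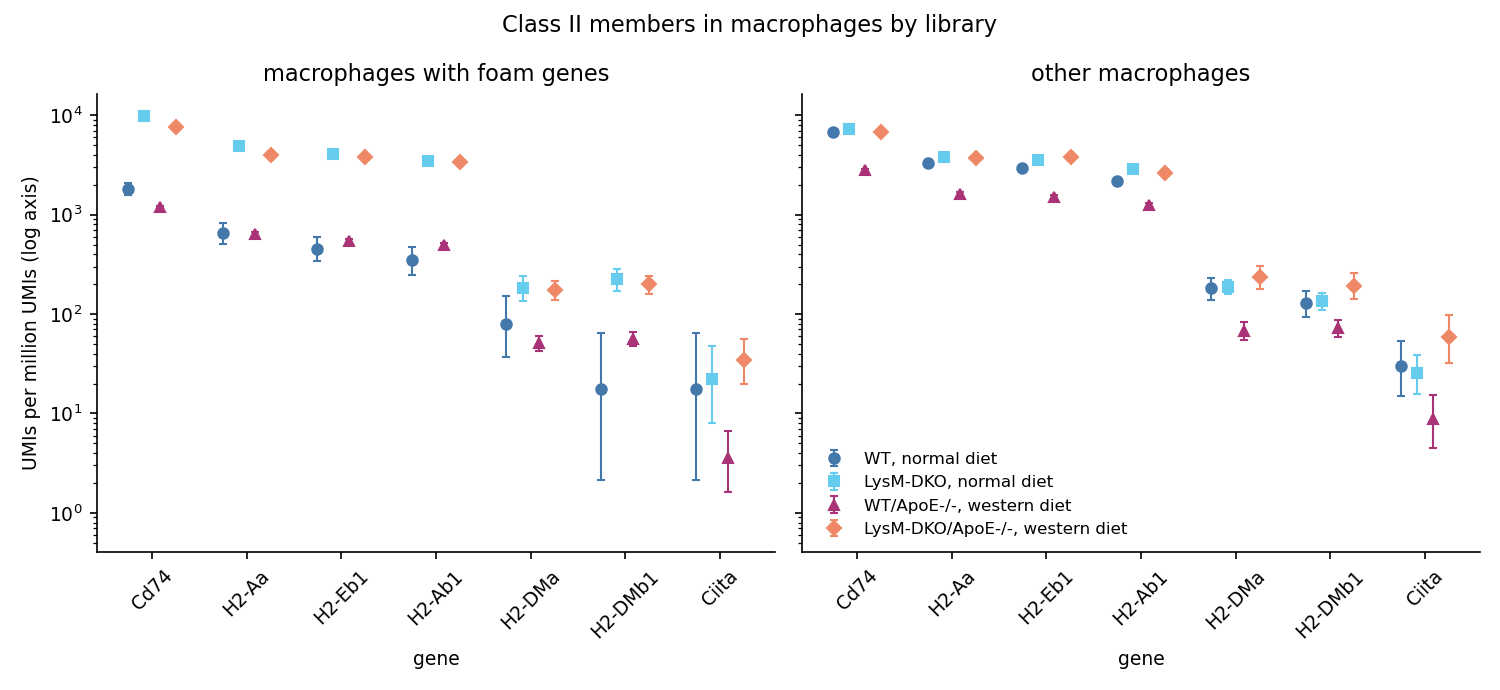
Levels of the 7 members seen most often in macrophages (UMIs per 1000000, log axis), with foam genes on the left and without on the right; each point is 1 library and bars are 95% Poisson intervals of counting error. In both panels the WT/ApoE-/- points lie below those of both LysM-DKO libraries for each gene, and the WT points on normal diet lie low only on the left, for genes other than Ciita.

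Barcodes that met the rule of a second class bear on these levels. Among macrophages that met no other rule (36, 75, 531 and 85 barcodes) the class II sum was 7733, 20762, 5439 and 20880 CPM. With foam genes it was 320, 30843, 3270 and 21197 CPM over 8, 11, 338 and 42 barcodes, of which the first value rests on 23 class II UMIs. Without foam genes it was 12674, 18554, 12880 and 20260 CPM over 28, 64, 193 and 43 barcodes. The 2 WT libraries thus had like levels in macrophages without foam genes once such barcodes were left out. The western genotype ratio was 1.94 over all barcodes of 1 rule and 2.70 (2.64 to 2.75) with foam genes, beside the 0.65 without them. On normal diet the ratio without foam genes was 0.55 (0.46 to 0.64), so the 1.42 over both subsets includes the 8 WT barcodes with 23 class II UMIs. In the WT/ApoE-/- library, macrophages without foam genes carried Acta2, a smooth muscle gene, at 7064 CPM, against 2910, 2738 and 3094 CPM in the other 3 libraries, and their median was 1926 UMIs. The part of smooth muscle RNA in the lower class II level was not tested beyond leaving out these barcodes.

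The WT/ApoE-/- library had a smaller share of macrophage barcodes rich in class II RNA than the other 3. To compare barcodes of unequal depth, each was thinned to 1000 UMIs at random. The median macrophage barcode then held 14, 15, 0 and 17 UMIs of the class II sum. At least 10 such UMIs were found in 51 of 92 (55.4%, 44.7 to 65.8), 116 of 208 (55.8%, 48.7 to 62.6), 120 of 939 (12.8%, 10.7 to 15.1) and 76 of 135 barcodes (56.3%, 47.5 to 64.8). The share was lowest in the WT/ApoE-/- library, and the intervals cover the counting of barcodes within a library, not differences between animals. Barcodes with 0 class II UMIs made up 19.6, 13.5, 56.3 and 17.0%. Among barcodes with at least 10, the sum was 23088, 29895, 28934 and 33237 CPM, so the rich barcodes of WT/ApoE-/-, chosen by these same UMIs, were near those of LysM-DKO on normal diet. They held 91.5, 92.5, 81.4 and 94.5% of the class II UMIs of all macrophages. Within the foam gene group the shares were 3 of 13 (23.1%), 21 of 35 (60.0%), 44 of 503 (8.75%) and 38 of 66 (57.6%). In B barcodes the shares were 84.7, 84.2, 84.5 and 71.4%. The limit of 10 was set after the data were seen and makes a range, not a cell type, with 6, 15, 33 and 6 macrophage barcodes between 8 and 12.

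**Figure D4:**
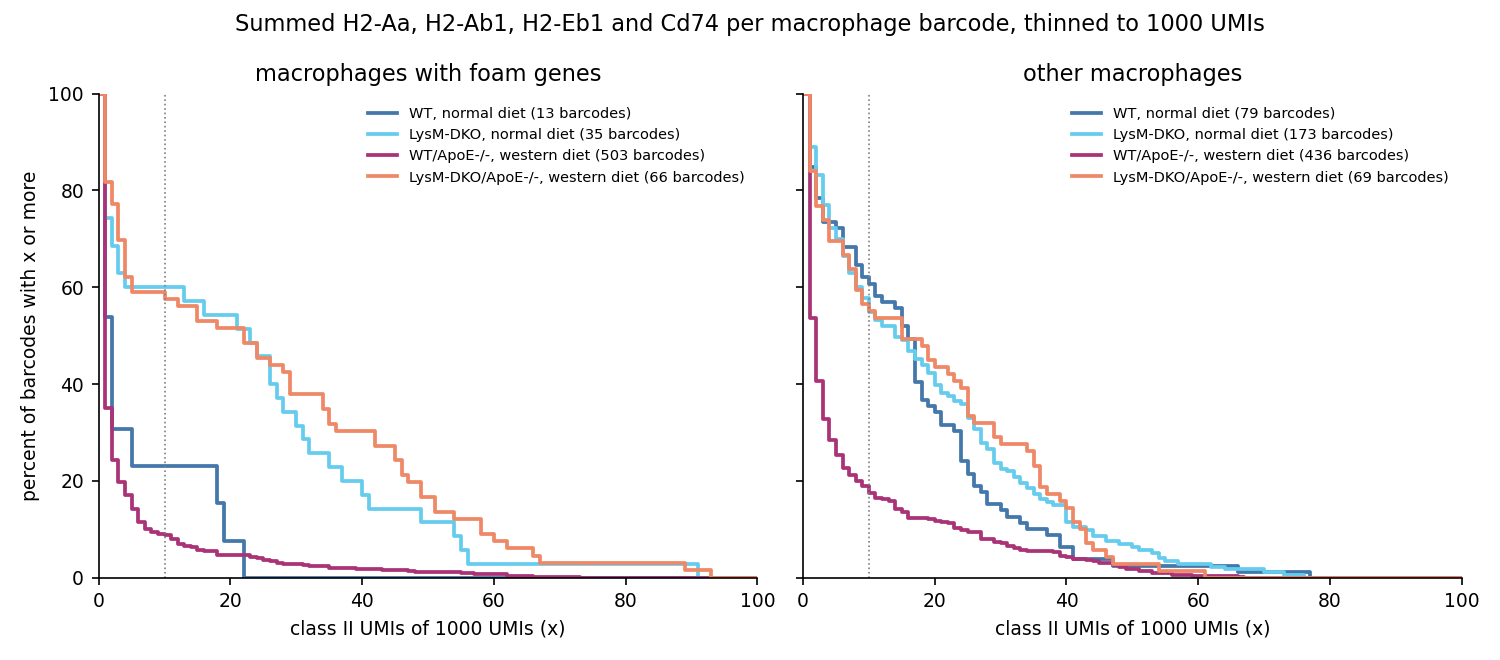
Percent of macrophage barcodes (vertical axis) that held at least x UMIs of H2-Aa, H2-Ab1, H2-Eb1 and Cd74 after thinning to 1000 UMIs (horizontal axis), with foam genes on the left and without on the right; each line is 1 library and the dotted line marks 10. At 10 UMIs the WT/ApoE-/- line is at 8.75% on the left and 17.4% on the right, and both LysM-DKO lines are at 54.9% or more.

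Shares of barcodes with a UMI gave the same order. H2-Aa was seen in 63.0, 67.8, 25.3 and 66.7% of thinned macrophage barcodes (71.7, 82.7, 36.2 and 76.3% before thinning). In smooth muscle barcodes, which should lack the gene, the thinned shares were 5.75, 8.26, 7.30 and 0.301%. Median depths before thinning were 4708.5, 4715, 2796 and 4025 UMIs in macrophages and 6228.5, 3667, 2219.5 and 6975 UMIs in smooth muscle. The macrophage share exceeded that background in each library.

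Macrophages poor in class II RNA, with under 10 such UMIs, differed from the rich ones in other genes. In WT/ApoE-/-, the 819 poor barcodes had Spp1, a secreted phosphoprotein of plaque macrophages, at 12089 CPM against 1337 CPM in the 120 rich ones. B and smooth muscle barcodes of that library had Spp1 at 1860 and 1904 CPM, above the rich macrophages. Gpnmb, a foam gene of the rule, was at 1056 against 212 CPM there. Ccr2, the monocyte chemokine receptor, went the other way, at 10.5 CPM in poor and 162 CPM in rich barcodes. In LysM-DKO/ApoE-/- Spp1 was at 3161 CPM in poor and 226 CPM in rich barcodes, and Ccr2 at 0 (0 to 10.9) and 66.2 CPM. The resident macrophage genes Lyve1 and Folr2 were also higher in the poor barcodes of that library, at 433 and 257 CPM against 143 and 52.4 CPM. On normal diet, LysM-DKO showed Lyve1 at 293 against 101 CPM and Folr2 at 291 against 129 CPM. In WT on normal diet both were level, with Lyve1 at 276 and 251 CPM and Folr2 at 214 and 217 CPM. In WT/ApoE-/- Lyve1 was level too, at 36.4 and 35.4 CPM, but Folr2 was at 141 CPM in poor and 22.9 CPM in rich barcodes. These are counts over barcodes of 1 library each and carry no test. The foam, resident and monocyte genes given are part of longer lists, of which the others are not reported here.

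The dendritic cell genes given here, part of a longer list, were at 29.8 CPM or less in the rich barcodes. Of the B cell genes, Cd79b was below its level in B barcodes, while Ighm was high in 1 library. Flt3 was at 0, 0, 10.4 and 8.27 CPM, Zbtb46 at 0, 3.14, 8.33 and 5.52 CPM, Xcr1 at 29.8, 11.0, 27.1 and 5.52 CPM, Clec9a at 0, 1.57, 2.08 and 0 CPM and Cd209a at 21.3, 23.6, 4.17 and 2.76 CPM. Itgax, Batf3 and Siglech of the same dendritic list are not given. Batf3 and Siglech were highest in the macrophage class in each library, above barcodes classed by dendritic genes. Itgax was too in each library but WT on normal diet. The part of dendritic cells in the rich barcodes was not tested. Cd79b was at 25.5, 36.2, 16.7 and 0 CPM, against 296, 353, 247 and 199 CPM in B barcodes. Ighm, the IgM heavy chain, reached 1704 CPM in the rich barcodes of LysM-DKO on normal diet, against 123, 127 and 66.2 CPM in the others. Without barcodes that held a UMI of Cd79a, Ms4a1 or Cd79b, the genotype ratio of the class II sum was 0.64 on normal and 2.12 on western diet, as large as with them.

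The DM genes followed the chain genes in macrophages. H2-DMa, the DM alpha chain, stood at 157, 185, 56.8 and 195 CPM, and H2-DMb1, a DM beta chain, at 103, 156, 61.6 and 197 CPM. On western diet LysM-DKO/ApoE-/- was higher by 1.78 (1.46 to 2.10) for H2-DMa and by 1.68 (1.36 to 1.98) for H2-DMb1 on the log2 scale. On normal diet the intervals were -0.15 to 0.64 for H2-DMa and 0.14 to 1.10 for H2-DMb1. Both genes also marked the class II rich barcodes. In WT/ApoE-/-, H2-DMb1 stood at 304 CPM (257 to 358) in rich and 27.7 CPM (22.4 to 33.8) in poor barcodes, and H2-DMa at 277 and 25.9 CPM. The rich barcodes of the 4 libraries had H2-DMa at 268, 272, 277 and 306 CPM, a narrow range.

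H2-DMb2, the other DM beta chain, was a gene of B barcodes rather than macrophages. It was at 76.7, 102, 129 and 120 CPM in B barcodes, the last from 6 UMIs. In macrophages it had 0, 9, 15 and 1 UMIs, or 0, 8.18, 3.84 and 1.42 CPM, where the interval of 0 UMIs reaches 7.73 CPM. H2-DMb1 had the opposite preference, with 39.7, 51.4, 42.3 and 79.7 CPM in B barcodes and more in macrophages of each library. B over macrophage, its log2 ratio was -1.38 (-1.86 to -0.86), -1.61 (-1.88 to -1.32) and -0.53 (-1.0 to -0.11) in the first 3 libraries, and that of H2-DMb2 was 3.57 (2.71 to 4.78) in LysM-DKO and 5.03 (4.31 to 5.94) in WT/ApoE-/-. On normal diet, in WT as in LysM-DKO, H2-DMb2, H2-Oa and H2-Ob were at least 2 fold higher in B barcodes and H2-DMb1 lower, among 10 members each. Of 9663 and 11447 genes, 25.8 and 17.7% were higher and 14.4 and 12.9% lower there. In WT/ApoE-/-, where macrophages were low, 9 of 10 members were higher and 0 lower, where 15.4% of 10853 genes were higher and 19.8% lower. Because H2-DMb1 and H2-DMb2 are so alike, reads that fit both may be missing from the counts of either.

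H2-Oa and H2-Ob, the chains of DO, were likewise higher in B barcodes than in macrophages. H2-Ob stood at 237, 246, 360 and 219 CPM there and at 10.5, 13.6, 6.39 and 4.27 CPM in macrophages. Its log2 ratio of B over macrophage was 4.36 (3.27 to 6.13), 4.13 (3.45 to 5.01) and 5.79 (5.24 to 6.46) in the first 3 libraries. H2-Oa stood at 61.7, 85.7, 101 and 59.8 CPM in B barcodes and had 0, 5, 4 and 0 UMIs in macrophages. For every 100 UMIs of H2-Aa, B barcodes held 7.48, 8.78, 11.2 and 10.8 UMIs of H2-Ob, and macrophages held 0.388, 0.334, 0.651 and 0.109. Even the class II rich macrophages had only 5, 10, 7 and 3 UMIs of H2-Ob. In smooth muscle H2-Ob was at 6.61, 7.16, 2.59 and 0.124 CPM. Some barcodes of that class carried B cell genes in the first 2 libraries, as given below. Its level is therefore not a floor for the macrophage values.

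**Figure D5:**
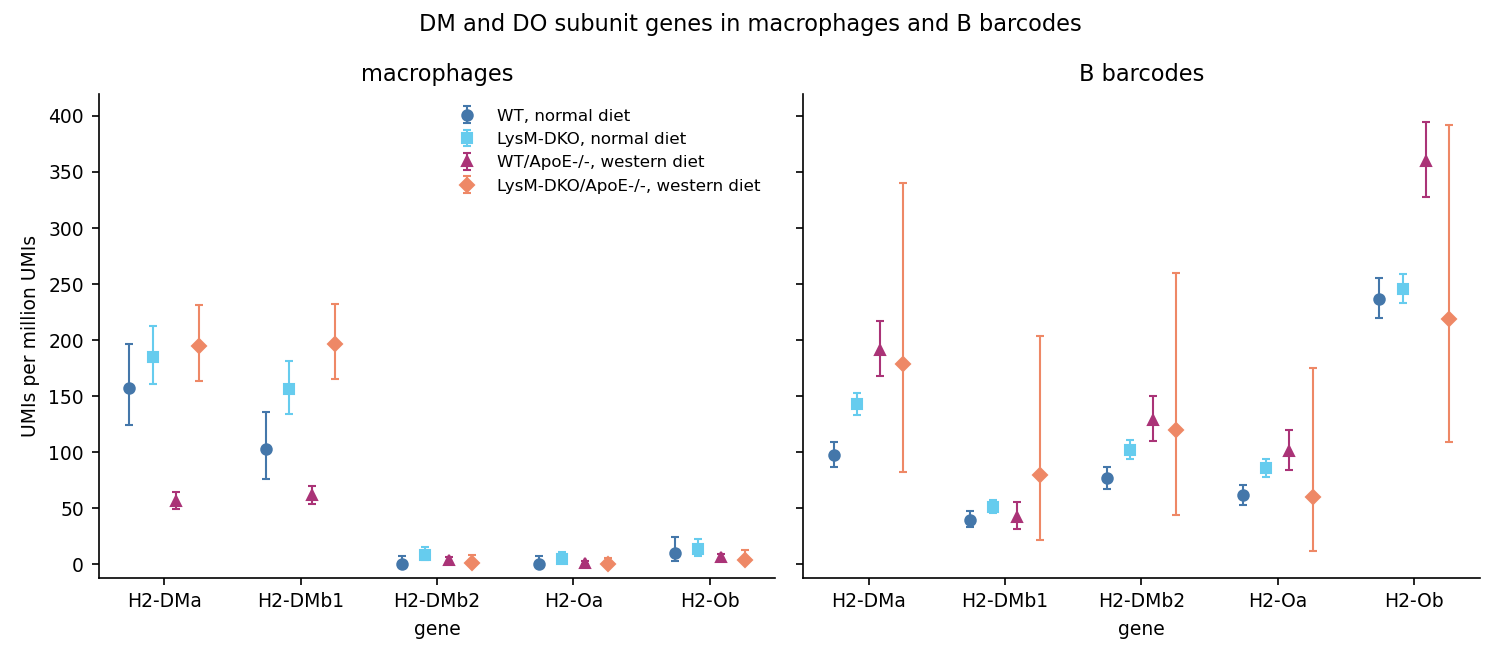
Levels of the DM and DO genes (UMIs per 1000000) in macrophages on the left and B barcodes on the right; each point is 1 library and bars are 95% Poisson intervals of counting error. H2-DMb2, H2-Oa and H2-Ob lie at 13.6 or less in macrophages and at 59.8 or more in B barcodes.

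T barcodes held DO transcripts out of proportion to their chain genes. With 52, 110, 13 and 1 UMIs of H2-Aa, they held 40, 42, 5 and 0 UMIs of H2-Ob and 25, 10, 6 and 1 of H2-Oa. In WT on normal diet this came to 76.9 (49.6 to 118) H2-Ob and 48.1 (28.6 to 78.9) H2-Oa per 100 H2-Aa, against 7.48 and 1.95 in B barcodes. H2-DMa was also high against H2-Aa there, at 57.7 (35.5 to 92.1) per 100, against 3.08 in B barcodes. H2-Ob was at 38.2 (26.1 to 54.9) per 100 H2-Aa in T barcodes of LysM-DKO on normal diet, again above the 8.78 of B barcodes. In both normal diet libraries the T ratio of H2-Ob thus lay above that of B barcodes beyond counting error. High ratios here go with a low H2-Aa count and not with a high level of H2-Ob. Its 40 and 42 UMIs lay among 3615613 and 2830216 UMIs of the T class. In smooth muscle, which should lack the gene, 153 and 123 lay among 23144912 and 17180142 UMIs. Some smooth muscle barcodes of these libraries also carried the B cell gene Cd79b, so these counts are not a floor. The part of background RNA in the T counts was not tested.

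Ciita, the coactivator of the pathway, was counted rarely and was lowest where the chain genes were lowest. In macrophages it had 13, 27, 21 and 30 UMIs, or 27.2, 24.5, 5.37 and 42.7 CPM. Its log2 ratio of LysM-DKO/ApoE-/- over WT/ApoE-/- was 2.98 (2.14 to 3.87), the highest of the members, and on normal diet it was -0.18 (-1.15 to 0.93). The WT/ApoE-/- value was lower than WT on normal diet by 2.36 (1.22 to 3.41). In rich barcodes Ciita stood at 51.1, 34.6, 31.2 and 77.2 CPM, and in poor ones at 4.12, 10.8, 1.75 and 5.90 CPM. In B barcodes it was level over libraries, at 27.0, 32.5, 30.5 and 19.9 CPM, the last from 1 UMI.

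B barcodes gave a second view of the same libraries, in a class that LysM Cre is not used to target. Of 10 members, 0 were at least 2 fold higher or lower in LysM-DKO than in WT on normal diet, where 4.67% of 11706 genes were higher and 1.69% lower. The class II sum differed by 0.00 (-0.02 to 0.02) on the log2 scale. H2-DMa was highest, at 0.55 (0.36 to 0.75), and H2-Aa lowest, at -0.18 (-0.21 to -0.14). Between the 2 WT libraries 0 of 10 passed 2 fold, where 5.27% of 10020 genes were higher and 7.11% lower, although H2-DMa came close at 0.97 (0.72 to 1.22). H2-DMb2 at 0.75 (0.46 to 1.05), H2-Oa at 0.71 (0.38 to 1.04) and H2-Ob at 0.61 (0.43 to 0.78) were also higher in WT/ApoE-/-. With 14 barcodes, the LysM-DKO/ApoE-/- B value was not set against the others beyond the levels above.

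Vascular cells had little class II RNA, and much of what the smooth muscle class held came from few barcodes. The class II sum in smooth muscle was 709, 1088, 332 and 61.6 CPM, of which 93.2, 87.8, 52.3 and 73.0% lay in the 162, 154, 204 and 11 barcodes with at least 5 of 1000 UMIs. These barcodes had Cd79b at 156, 121, 44.3 and 0 CPM and Flt3 at 53.1, 34.1, 37.3 and 10.3 CPM, genes of B and dendritic cells. Without barcodes that held a UMI of Ptprc, Cd52, Coro1a, Laptm5 or Tyrobp, the sum was 45.6, 118, 142 and 17.0 CPM in smooth muscle, 37.5, 115, 50.5 and 27.1 CPM in fibroblasts and 105, 150, 65.8 and 61.5 CPM in endothelium. Endothelium was the highest of these classes in 3 libraries, and smooth muscle in WT/ApoE-/-. Of all endothelial barcodes, 81.1, 71.7, 84.0 and 87.8% also met the rule of a later class. Before leukocyte genes were used, 2 of 732 endothelial barcodes in WT and 13 of 880 in LysM-DKO held 40.4 and 64.4% of the class II UMIs of that class. In smooth muscle the western diet libraries stood the other way round from macrophages: over all its barcodes 9 of 10 members were at least 2 fold lower in LysM-DKO/ApoE-/-, where 9.52% of 15552 genes were lower and 1.92% higher. Free RNA from the antigen-presenting cells of a library can give such UMIs, and this was not tested.

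H2-DMb1 was not low in proportion to the chain genes in vascular cells. In the same barcodes without leukocyte genes it stood at 5.82, 5.06, 7.65 and 8.98 CPM in smooth muscle, at 4.64, 6.95, 8.60 and 12 CPM in fibroblasts and at 7.48, 7.38, 12.4 and 16.1 CPM in endothelium. The class II sum was lowest in LysM-DKO/ApoE-/-, where these 3 classes had 364, 390 and 156 UMIs of H2-DMb1 per 100 of H2-Aa. Macrophages and B barcodes of that library had 5.01 and 3.92. The vascular ratios have a low H2-Aa count below them. Over all barcodes of the 3 classes, also those with leukocyte genes, they were 75.8 (67.0 to 85.7), 390 (191 to 876) and 46.2 (34.5 to 61.3). The fibroblast value there rests on 10 UMIs of H2-Aa. H2-DMb1 in vascular barcodes therefore did not keep the ratio to H2-Aa that the antigen-presenting cells of the library had. In its vascular barcodes without leukocyte genes H2-Ob was at 0.0209, 0 and 0 CPM.

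Genes around the pathway did not share the size of the western genotype difference in macrophages, for which 4.10% of all genes were at least 2 fold higher and 9.10% lower. Of 16 regulators, 15 had at least 20 UMIs, of which 1 was at least 2 fold higher and 1 lower, with a median of 0.22. The higher one was March1, a ubiquitin ligase that removes class II from the surface, at 1.22 (0.53 to 1.85), and the lower one was Rfxap, an RFX subunit, at -1.10 (-2.34 to -0.20). Ifngr1, a chain of the interferon-gamma receptor, was at 0.68 (0.41 to 0.94). Of 6 measured interferon-gamma target genes, 0 were higher and 3 lower: Cxcl9, with 0 UMIs in LysM-DKO/ApoE-/- and 41 in WT/ApoE-/-, Serping1, at -1.24 (-1.94 to -0.67), and Socs1, at -1.03 (-2.83 to 0.15). Cxcl10, the most counted of the 6 with 445 and 1467 UMIs, went the other way at 0.76 (0.60 to 0.91), as did Cd274, which encodes PD-L1, at 0.97 (0.13 to 1.70). Gbp2 was at -0.66 (-1.91 to 0.27), and the median of the 6 was -0.84. Of 9 class I genes 0 passed 2 fold, with H2-K1 at 0.49 (0.38 to 0.60) and B2m at 0.32 (0.20 to 0.43). Of 7 loading genes 0 passed, and the protease genes leaned the other way, with Ctss, which cuts the invariant chain, at -0.25 (-0.33 to -0.17) and Ctsd at -0.67 (-0.75 to -0.58). Of 5 measured costimulation genes 0 passed, with a median of 0.74 and Cd86 at 0.76 (0.48 to 1.03).

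Between the WT libraries the proteases and the chain genes went opposite ways. Of 7 loading genes 6 were at least 2 fold higher in WT/ApoE-/-, where 21.0% of genes were, with Ctsd at 2.89 (2.68 to 3.11), Ctsl at 2.47 (2.26 to 2.71) and Ctss at 1.92 (1.76 to 2.09). Ifi30, the thiol reductase of the endosome, was the one that was not, at 0.15 (-0.14 to 0.47). Cd86 and Icosl, ligands of T cell receptors for costimulation, were lower with the chain genes, at -1.27 (-1.54 to -0.98) and -1.63 (-2.51 to -0.59).

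On normal diet the interferon-gamma target and costimulation genes went both ways between the genotypes. Of 6 measured target genes 2 were at least 2 fold higher in LysM-DKO and 0 lower, where 6.55% of all genes were higher and 2.39% lower, with a median of 0.51. The 2 were Cxcl9, at 2.69 (1.69 to 4.13), and Cd274, at 1.54 (0.64 to 2.72), which rest on 7 and 10 UMIs in the WT library. Cxcl10 was the other way at -0.81 (-0.91 to -0.70), with 1615 and 1224 UMIs. Of 4 measured costimulation genes, Cd274 was higher and Icosl lower, at -1.21 (-2.38 to -0.03) with 14 UMIs in each library, and the median was -0.10.

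The gene whose levels were most like the class II sum was Cd86, a costimulatory ligand of antigen-presenting cells. Over 29 combinations of library and class with at least 20 barcodes, and among 6385 other genes, its Pearson correlation of log2(CPM + 1) with the sum was 0.970. Lyn (0.951), Wdfy4 (0.949), Cd83 (0.948), Spi1 (0.948), Blnk (0.943), Gm6377 (0.941) and Plcg2 (0.930) followed. The 29 include 3 made of barcodes classed by dendritic genes, a set that did not hold up against its markers. Without these 3, Blnk was highest at 0.968 and Cd86 next at 0.965, and the 8 genes named ranked between 1 and 15. Over all 29, of the members outside the sum, H2-DMa was at 0.961, Ciita at 0.939, H2-DMb1 at 0.890, H2-Ob at 0.733, H2-DMb2 at 0.705 and H2-Oa at 0.414. The points share libraries and are separated mainly by leukocytes against vascular cells, so these values are a description.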

How the data were processed

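Aortic cells of 4 libraries, 1 per group, were measured by single-cell 3' RNA sequencing. Per the labels' protocols, perfused aortas were digested with collagenases and liberase. The deposited matrices hold whole-number counts of UMIs per gene and barcode, whose totals differ between libraries, so that the authors left them unscaled. Cell Ranger 6.0.1 (normal diet) and 6.1.2 (western diet) wrote them, per the file headers, and the submitters' processing notes name Cell Ranger 6.1.2, Seurat 4.1.0 and mm10. Cell calling parameters and the annotation release are not given in the sources used here. No replicates exist, so no test between groups was made.

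Barcodes with 1000 UMIs or more, of which 10% or less were mitochondrial, were classed by the first rule met: C1qa, C1qb and C1qc, 5 UMIs; Cd79a and Ms4a1, 2; Cd3d, Cd3e and Trac, 2; Pecam1 and Cdh5, 2; Pdgfra and Serpinf1, 3; Myh11 and Cnn1, 3. UMIs were summed by library and class. Ratios are log2 of CPM with 0.5 UMIs added. Genes with at least 20 UMIs over both sums were counted, and 2 fold was the limit. Shares used 1000 UMIs drawn per barcode. A barcode set with dendritic genes did not hold up against its markers and is not named. The intervals were tried on simulated Poisson counts only, which leave out the clumping of UMIs in single barcodes. Of 32285 features, 99.6% matched GENCODE M21 by ID. All 10 members were named, with related genes from lists, of which some are not reported here, and the 8 genes most like the sum. Members, lists and classes were chosen with earlier results of these data known. Alternatives were other UMI and mitochondrial limits, barcodes of 1 rule only, doubled thresholds, equal weight per barcode and median-ratio scaling. The ratios by foam genes among barcodes of 1 rule, the correlations without dendritic barcodes and the sums without B genes were added after the data were seen. Tools were pandas 2.3.3 and numpy 2.4.6 for sums, scipy 1.17.1 for intervals and matplotlib 3.10.9, in Python 3.11.15.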

Additional observations from a re-analysis of the deposited data

Results flagged for a closer look

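The ratio of the class II sum in macrophages with foam genes over the other macrophages had opposite signs in the 2 genotypes. In WT the log2 value was -2.22 (-2.37 to -2.06), and WT/ApoE-/- had -1.31 (-1.36 to -1.27). The others were 0.34 (0.30 to 0.39) in LysM-DKO and 0.16 (0.10 to 0.21) in LysM-DKO/ApoE-/-. Each library of one genotype lay on one side of 0 and each library of the other on the other side, and the difference itself was not tested. The first value rests on 13 barcodes, of which 1 held 50.1% of the class II UMIs, and the last is small against the range of its alternatives.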

How the results depend on the processing

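Across 76 alternative values of the class II sum, 24 stayed within the interval of the value reported, 49 moved beyond it and 3 had the opposite sign. The 3 all concern LysM-DKO macrophages between diets, at -0.04 in the report: 0.01 with up to 20% mitochondrial UMIs, 0.01 without barcodes meeting 2 or more class rules, and 0.18 with equal weight per barcode. It was -0.17 with doubled class thresholds, -0.20 with median-ratio scaling and -0.09 without barcodes that held B genes. The B genotype ratio on normal diet, 0.00 in the report, was -0.00 with equal weight per barcode and with median-ratio scaling, so it has no stable sign. The other log2 ratios below kept their sign.

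The western genotype ratio (2.06) was 2.10 at 500 UMIs, 1.95 at 2000 UMIs, 2.09 at 20% mitochondrial UMIs, 1.94 without barcodes of several rules, 1.78 with doubled thresholds, 2.25 with equal weight, 2.02 with median-ratio scaling and 2.12 without B genes. In the order of the settings that moved it, the normal diet genotype ratio (0.59) was 0.55 at 20% mitochondrial UMIs, 1.42 without barcodes of several rules, 0.66 with doubled thresholds, 0.38 with equal weight, 0.64 with median-ratio scaling and 0.64 without B genes. The WT diet ratio (-1.51) was -1.55 at 500 UMIs, -1.39 at 2000, -0.51 without barcodes of several rules, -1.29 with doubled thresholds, -1.68 with equal weight, -1.44 with median-ratio scaling and -1.57 without B genes. Foam gene over other macrophages in WT/ApoE-/- (-1.31) was -1.23 at 500 UMIs, -1.50 at 2000, -1.98 without barcodes of several rules, -2.02 with doubled thresholds, -1.03 with equal weight, -1.21 with median-ratio scaling and -1.45 without B genes. In LysM-DKO/ApoE-/- (0.16) it was 0.09 at 20% mitochondrial UMIs, then 0.07, 0.06, 0.47 and 0.30 under the next 4 settings.

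In B barcodes the normal diet genotype ratio (0.00) was 0.06 without barcodes of several rules and 0.06 with doubled thresholds. B over macrophages was 1.12 without barcodes of several rules and 0.31 with equal weight in WT (0.23). In LysM-DKO (-0.36) it was -0.33 at 20% mitochondrial UMIs, -0.24 without barcodes of several rules, -0.40 with doubled thresholds, -0.08 with equal weight and -0.49 with median-ratio scaling. In WT/ApoE-/- (1.76) it was 1.46 at 2000 UMIs, 1.59 with doubled thresholds, 1.98 with equal weight and 1.61 with median-ratio scaling. The cause of each shift was not tested. No paired analysis was possible because each group has 1 library. Depth limits H2-DMb2, H2-Oa, H2-Ob and Ciita, with 30 macrophage UMIs or fewer per library.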

Other observations

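H2-Eb2, a class II beta chain gene outside the 10 members, was higher in B barcodes than in macrophages, like H2-DMb2 and the DO genes. H2-Eb2 stood at 71.4, 56.4, 82.2 and 79.7 CPM in B barcodes, in the order used above, and at 4.19, 3.63, 1.53 and 1.42 CPM in macrophages, where it had 2, 4, 6 and 1 UMIs. In smooth muscle it was at 2.12, 2.27, 0.814 and 0 CPM.

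Barcodes with at least 2 UMIs of Flt3, Zbtb46, Xcr1, Clec9a or Cd209a that met no macrophage, B or T rule, a set defined after the data were seen, had a class II sum of 18325, 20162, 16662 and 5855 CPM over 57, 64, 56 and 19 barcodes. H2-Oa was at 70.8, 74.6, 57.3 and 21.5 CPM there, near its B level in the first 2 libraries, and H2-Ob was at 89.1, 55.5, 28.7 and 14.3 CPM, below its B level in all 4. H2-DMb1 was at 64.0, 139, 201 and 133 CPM, and Ciita at 18.3, 15.6, 34.4 and 7.17 CPM. The set is not called a cell type here.

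Endothelial barcodes without leukocyte genes differed within the WT library by capillary genes. Those with at least 2 UMIs of the capillary markers Gpihbp1, Rgcc and Car4 had a class II sum of 30.9 CPM, against 125 CPM in the rest. In LysM-DKO on normal diet the 2 values were 141 and 153 CPM, so the gap was not seen there. Of all endothelial barcodes of these libraries, 81.1 and 71.7% also met the rule of a later class, and the gap was not tested.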
